A study of Vitis vinifera with 219 samples.

Results

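ANR (VIT_00s0361g00040), LAR1 (VIT_01s0011g02960) and LAR2 (VIT_17s0000g04150) are the reductase genes of the tannin branch of flavonoid synthesis in grape berries. ANR encodes anthocyanidin reductase, and LAR1 and LAR2 encode leucoanthocyanidin reductases. They were chosen by gene identity and not by their values, and are 3 of the 29971 gene IDs in the expression table. All 3 passed the filter on low values. The study followed berry pericarp, with the seeds taken out during grinding, through ripening in Cabernet Sauvignon and Pinot noir in 2012, 2013 and 2014. All vines were unthinned. Cabernet Sauvignon was clone FPS 8 on 5C rootstock (planted 1997) and Pinot noir was clone FPS 23 on Freedom rootstock (planted 2001), so each cultivar is 1 clone, and cultivar cannot be told apart from clone, rootstock, vine age or plot. The RNA-seq libraries form 73 groups of 3, each group being a cultivar, a season and a sampling day counted from veraison (the start of colouring and softening). The 3 libraries of a group came from blocks along 3 vine rows, and each pools many berries. Cabernet Sauvignon was sampled 13, 14 and 13 times in the 3 seasons, from day -37 to day 80, and Pinot noir 10, 11 and 12 times, from day -36 to day 53.

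Condensed tannins are chains of flavan-3-ol units. ANR makes epicatechin-type units from anthocyanidins, and LAR makes catechin-type units from leucoanthocyanidins. In grape they are known to build up in skins and seeds before veraison and to stop accumulating as ripening begins. The anthocyanidins that ANR reduces are also the substrate of UFGT, the glucosyltransferase that makes the red anthocyanins of ripening skins.

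The authors gave levels as RPKM, which are reads scaled both to the length of a gene and to the size of its library, and the read depth behind them is unknown. In bulk tissue, fewer cells of a type and less RNA per cell cannot be told apart. Differences are log2 changes of RPKM + 1 from limma over all libraries, with the standard error (SE), and steps by day compare one sampling with the next of the same cultivar and season. A gene was called where the Benjamini-Hochberg adjusted p over the 21425 genes tested was under 0.05 and the log2 change was at least 1 in size. Sampling groups were also put into classes by their mean labelled sugar content: under 1, 1-4, 4-10, 10-16, 16-22, and 22 g/100 ml and over.

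Some libraries stood apart. In 4 libraries the level of cultivar marker genes (46 for Cabernet Sauvignon and 66 for Pinot noir) went against the label: all 3 libraries of Cabernet Sauvignon 2014 at day -23 and replicate 2 of Pinot noir 2014 at day -14. A set of 30 genes was near 0 in 88 libraries and well above 0 in the other 131. The 88 hold all 75 libraries of 2014 and 13 of Cabernet Sauvignon 2013, so the 2014 season and this library set cannot be told apart. In Pinot noir 2013 at day -20, replicates 1 and 2 were far above replicate 3 for all 3 genes. The tests below were also computed without each of these sets of libraries. The 50% points and the step calls were also computed without the 4 marker libraries and without replicates 1 and 2 of that sampling.

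Over the 67 steps between successive samplings, ANR was called lower at 9 and higher at 2, LAR1 lower at 4 and higher at 2, and LAR2 lower at 8 and higher at 1. Over all genes and steps, 1.80% were called lower and 1.19% higher. Leaving out any 1 replicate, the libraries with the other cultivar's markers, or replicates 1 and 2 of Pinot noir 2013 at day -20 left 6 of the 9 falls and 0 of the 2 rises of ANR, 1 of the 4 falls of LAR1, and 3 of the 8 falls and the 1 rise of LAR2. Of the rises of LAR1, that of Cabernet Sauvignon 2014 has no value without the marker libraries, and that of Pinot noir 2014 at day -14 was 0.61 without them and did not pass. The LAR1 falls of Pinot noir 2014 at day -6 (-0.56 without the marker library) and of Pinot noir 2013 at day -14 (-0.31 without the 2 high libraries) did not pass either. The ANR rise of Pinot noir 2014 at day 28 was 0.51 without replicate 1. ANR was highest in green berries, and in both cultivars and all 3 seasons its mean was under 10% of its highest green level by the time sugar had reached 9 g/100 ml. For Pinot noir 2013 this rests on replicates 1 and 2 of day -20: the mean of day 0 was 3.98% of the level with them and 18.6% of replicate 3 alone. In Cabernet Sauvignon of 2012 it stood at 86.7, 57.4 and 64.4 RPKM in replicates 1, 2 and 3 on day -37, and at 14.1, 27.3 and 14.9 on day -18. It was at 7.14, 5.92 and 9.18 RPKM on day -9 and at 0.700, 0.928 and 0.575 on day 0. These 4 samplings do not overlap, and the step into day 0 was the largest fall of that season (log2 change -2.27, SE 0.35, adjusted p = 1.32e-08; 8.46% of all genes were called lower at the same step). From day 0 to day 80 no library of that season exceeded 1.78 RPKM.

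In Cabernet Sauvignon of 2013, ANR stood at 45.9, 26.3 and 28.2 RPKM on day -26 and at 10.5, 30.6 and 13.0 on day -20. It was at 7.30, 7.46 and 7.99 RPKM on day -13 and at 1.98, 3.04 and 2.28 on day -6. The groups of day -26 and day -20 overlap, and those of day -13 and day -6 do not. The largest fall of the season was the step into day -6 (log2 change -1.33, SE 0.35, adjusted p = 0.00101; 5.99% of genes called lower), at a mean sugar content of 2.00 g/100 ml. With a pseudocount of 5 in place of 1 it was -0.76 and under the size threshold.

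The 2014 course of Cabernet Sauvignon was not a steady decline. ANR stood at 19.8, 16.2 and 19.0 RPKM on day -23, in the libraries with Pinot noir markers, and at 6.90, 9.48 and 18.6 on day -14. On day -7 it was at 35.6, 26.9 and 58.4 RPKM, above every library of the samplings before it. That step was a rise (log2 change 1.74, SE 0.35, adjusted p = 0.000133; 1.32% of genes called higher), and it did not pass without replicate 1 (1.51). Mean sugar was 0.43 g/100 ml on day -14 and 0.56 on day -7. On day 0, ANR was at 3.36, 8.64 and 9.21 RPKM, a fall of -2.38 on the log2 scale (SE 0.35, adjusted p = 6.89e-09; 4.72% of genes called lower).

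In Pinot noir the fall of ANR was abrupt in 2012. It stood at 28.6, 54.0 and 19.3 RPKM on day -36, at 19.3, 23.9 and 19.7 on day -28 and at 43.6, 26.8 and 29.9 on day -18. On day -9 it was at 1.92, 3.22 and 3.38 RPKM. The 3 earlier groups overlap one another and none overlaps day -9 (log2 change of the last step -3.16, SE 0.35, adjusted p = 1.80e-14; 9.12% of genes called lower). Mean sugar rose from 1.23 to 3.58 g/100 ml over the same step.

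In Pinot noir of 2013, ANR was at 65.7, 87.6 and 11.8 RPKM on day -20 and at 9.34, 6.79 and 8.43 on day -14. The step passed (log2 change -2.21, SE 0.35, adjusted p = 2.50e-07; 2.41% of genes called lower), but rests on replicates 1 and 2 of day -20: against replicate 3 alone it was -0.48 and did not pass. In 2014, ANR was at 16.7, 25.0 and 18.7 RPKM on day -20 and still at 9.72, 9.28 and 7.45 on day 0. On day 7 it was at 1.58, 1.92 and 2.37 RPKM, below all earlier libraries of that season (log2 change -1.73, SE 0.35, adjusted p = 8.13e-05; 2.13% of genes called lower; -0.99 with a pseudocount of 5). Sugar was 1.11 g/100 ml at day 0 of that season and 8.40 at day 7.

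**Figure D1:**
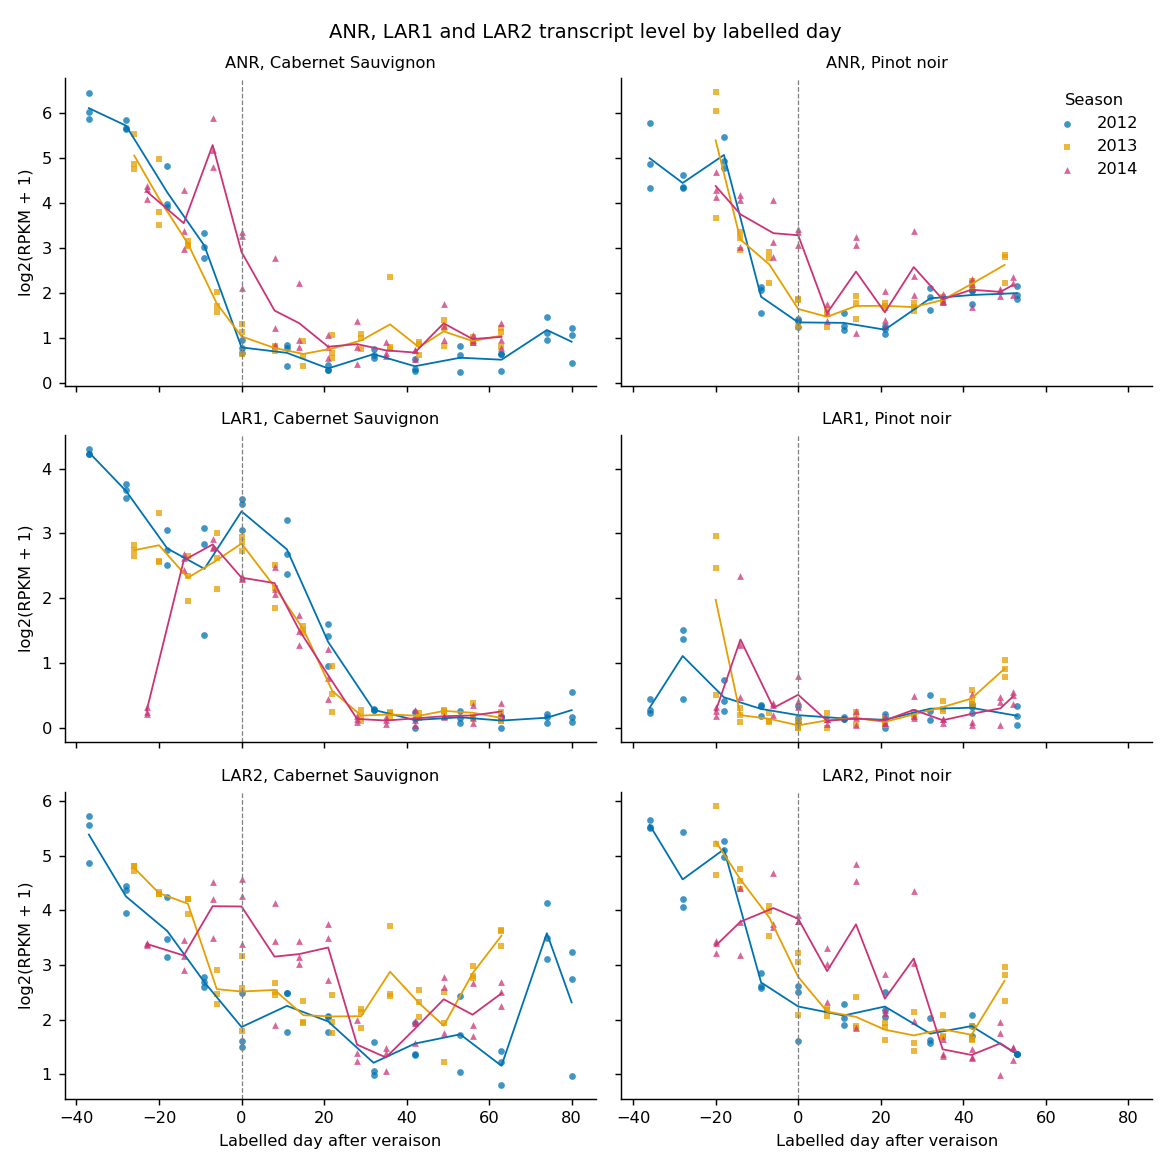
Transcript levels of ANR, LAR1 and LAR2, as log2(RPKM + 1), against the labelled day after veraison, for Cabernet Sauvignon (left) and Pinot noir (right). Each point is 1 library, coloured by season, lines join the means of 3 libraries, and the dashed line is day 0. ANR is low from day 0 in 2012 and 2013 and still raised at day 0 in 2014. Some libraries of Pinot noir 2014 are high again on days 14 and 28. LAR1 is near 0 in most Pinot noir libraries.

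Read by sugar, ANR fell at both steps below 10 g/100 ml. Between the classes under 1 and 1-4 g/100 ml, ANR fell by 1.76 on the log2 scale as a mean of the 6 cultivar-seasons (SE 0.11, adjusted p = 1.03e-31), where 2.63% of all genes were called lower. Between 1-4 and 4-10 it fell by a further 1.58 (SE 0.13, adjusted p = 3.35e-22; 5.02% of genes called lower, with a median of -0.17 over all genes). With a pseudocount of 5 the second value was -0.86 and missed the size threshold. In the class under 1 g/100 ml, ANR had a lowest value of 6.90, a median of 26.3 and a highest of 86.7 RPKM in Cabernet Sauvignon, and of 7.15, 19.3 and 87.6 RPKM in Pinot noir. At 4-10 g/100 ml the lowest, median and highest values were 0.561, 0.928 and 5.90 RPKM in Cabernet Sauvignon and 1.35, 1.69 and 2.62 in Pinot noir. The classes do not overlap in either cultivar.

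Both cultivars passed both steps on their own. The first was -2.03 (SE 0.17) in Cabernet Sauvignon and -1.49 (SE 0.15) in Pinot noir, where 4.31% and 1.77% of genes were called lower. Without replicates 1 and 2 of Pinot noir 2013 at day -20 the Pinot noir value was -0.92 and did not pass. The second was -1.43 (SE 0.20; -0.69 with a pseudocount of 5) and -1.72 (SE 0.18), with 5.00% and 6.25% of genes called lower. The difference between the cultivars was 0.54 (SE 0.23, adjusted p = 0.0583) for the first step and -0.29 (SE 0.27, adjusted p = 0.495) for the second, and neither passed (2.16% and 2.25% of genes were called in either direction). From 4-10 to 10-16 g/100 ml the change was -0.10 (SE 0.13, adjusted p = 0.578; 1.38% of genes called in either direction).

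Late in ripening ANR was higher in Pinot noir. At 22 g/100 ml and over, the 24 Pinot noir libraries had a lowest value of 2.24, a median of 3.23 and a highest of 6.23 RPKM. The 33 Cabernet Sauvignon libraries had a lowest value of 0.187, a median of 0.934 and a highest of 4.11 RPKM. The ranges overlap through 2 Cabernet Sauvignon libraries, replicate 1 of 2013 at day 36 (4.11) and replicate 3 of 2014 at day 49 (2.39). The difference of Pinot noir minus Cabernet Sauvignon was 1.09 on the log2 scale (SE 0.12, adjusted p = 8.51e-16; 5.62% of genes called higher), but 0.46 with a pseudocount of 5, which did not pass. This comparison was added after the late values had been seen.

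The cultivar difference of ANR was not called in the 3 lower classes tested. It was 0.12 (SE 0.14, adjusted p = 0.480) under 1 g/100 ml, 0.66 (SE 0.18, adjusted p = 0.000632) at 1-4 and 0.84 (SE 0.17, adjusted p = 3.73e-06) at 10-16, each of a size under 1. The first of these turned to -0.45 without the 2 high libraries of Pinot noir 2013. In the 2013 season ANR of Pinot noir was at 1.38, 2.08 and 1.90 RPKM on day 7 and at 5.95, 3.68 and 6.23 on day 50. The groups do not overlap, while the last step, from day 42, did not pass (0.42, SE 0.35, adjusted p = 0.503).

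LAR1 followed another course in Cabernet Sauvignon. It was present before veraison and at day 0, and reached its low level between day 28 and day 32. In 2012 it was at 18.7, 17.8 and 17.6 RPKM on day -37, and at 7.31, 5.70 and 4.69 on day -18. On day 0 it was at 9.90, 10.5 and 7.28 RPKM and on day 11 at 5.42, 4.21 and 8.19. The 3 libraries of day -37 lie above all others, and those of days -18, 0 and 11 overlap in part. On day 21 it was at 2.04, 0.943 and 1.69 RPKM (log2 change of the step -1.43, SE 0.23, adjusted p = 1.06e-06; 1.33% of genes called lower; -0.73 with a pseudocount of 5) and by day 32 at 0.217, 0.225 and 0.211.

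The other seasons of Cabernet Sauvignon ended the same way. In 2013 LAR1 was at 5.62, 6.29 and 6.68 RPKM on day 0, at 1.99, 1.86 and 1.78 on day 15 and at 0.214, 0.0857 and 0.138 on day 29. In 2014 it was at 3.96, 3.94 and 4.07 RPKM on day 0, at 1.84, 2.35 and 1.43 on day 14 and at 0.108, 0.134 and 0.0724 on day 28. Within each season these 3 groups do not overlap. Mean sugar on days 32, 29 and 28 of the 3 seasons was 19.1, 21.1 and 17.5 g/100 ml. From those days on no library exceeded 0.475 RPKM.

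The libraries of Cabernet Sauvignon 2014 at day -23 were the exception in the green phase. They had LAR1 at 0.191, 0.258 and 0.170 RPKM, against 5.16, 4.44 and 5.45 on day -14. These are the 3 libraries that carry the Pinot noir markers, and the rise of 2.32 at that step (SE 0.23, adjusted p = 7.65e-17; 6.12% of genes called higher) rests on them.

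In Pinot noir LAR1 was near 0 at nearly every sampling. It was under 1 RPKM in 92 of 99 libraries, with a median of 0.182, and was listed at 0 in 4. In Cabernet Sauvignon 57 of 120 libraries reached 1 RPKM. The 7 Pinot noir libraries at 1 RPKM or more were replicates 1 and 2 of 2013 at day -20 (4.52 and 6.75), replicates 1 and 2 of 2014 at day -14 (1.42 and 4.07), replicates 1 and 3 of 2012 at day -28 (1.86 and 1.59) and replicate 3 of 2013 at day 50 (1.07). The value of 4.07 belongs to the library with Cabernet Sauvignon markers. The remaining libraries of the first 3 groups had 0.428, 0.395 and 0.364 RPKM.

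**Figure D2:**
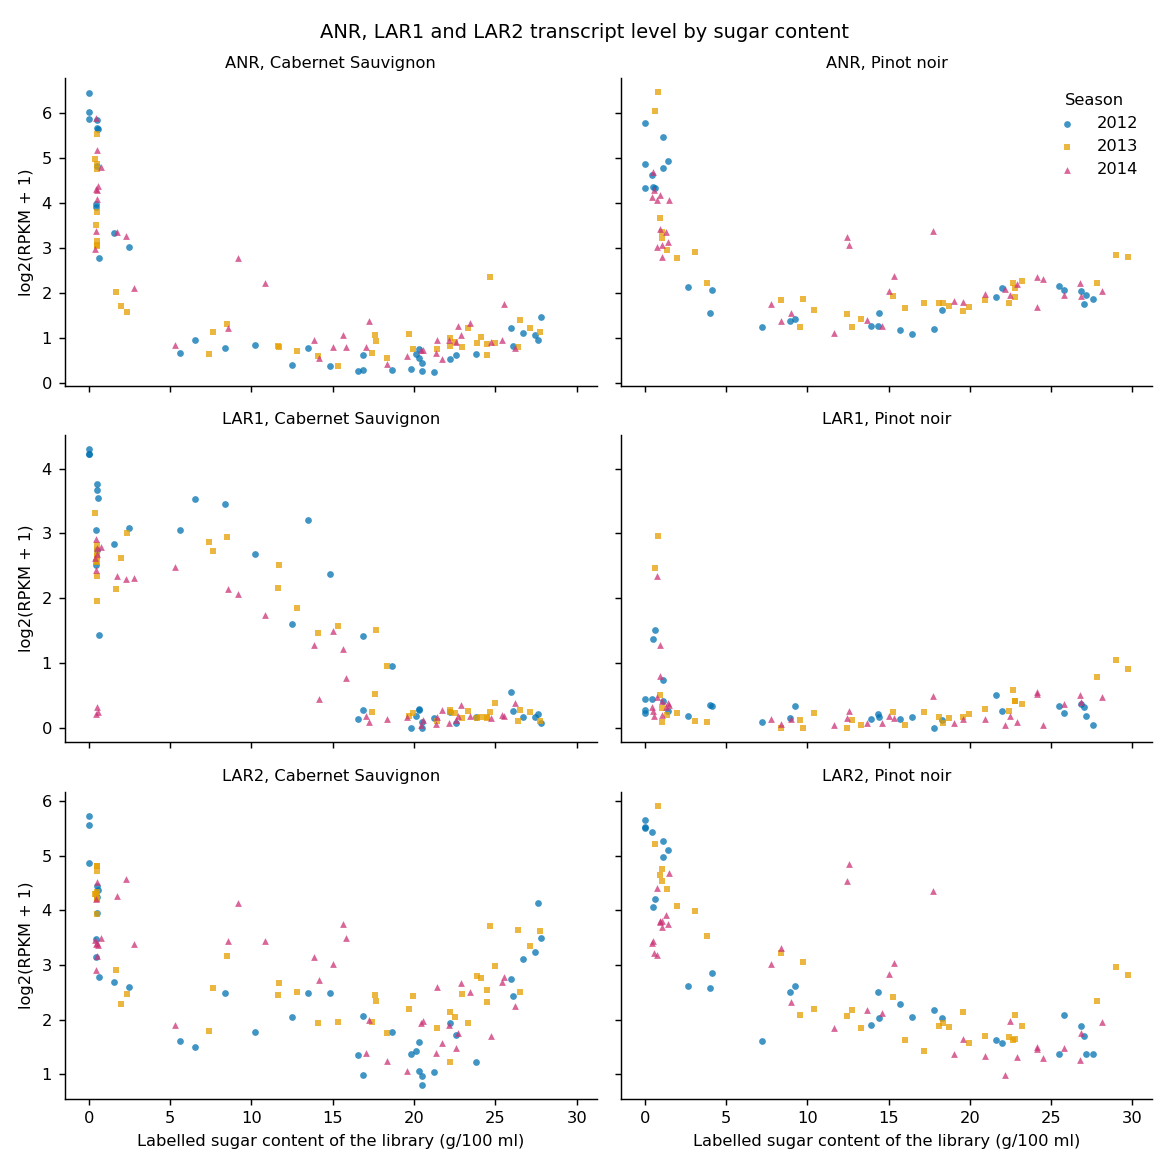
The same levels, as log2(RPKM + 1), against the labelled sugar content of each library in g/100 ml, for Cabernet Sauvignon (left) and Pinot noir (right), coloured by season. ANR drops within the first few g/100 ml in both cultivars, whereas LAR1 of Cabernet Sauvignon reaches its low level only between 15 and 20 g/100 ml.

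The cultivar difference in LAR1 was called in the 3 lower sugar classes tested. Pinot noir minus Cabernet Sauvignon was -1.52 under 1 g/100 ml (SE 0.09, adjusted p = 2.86e-33; 2.39% of genes called lower), -2.13 at 1-4 (SE 0.11, adjusted p = 9.32e-39; 3.40%) and -1.78 at 10-16 (SE 0.11, adjusted p = 8.34e-34; 3.33%). Without the libraries that carry the other cultivar's markers the first was -1.88, and without 2012 it was -0.86 and did not pass. At 22 g/100 ml and over, where both cultivars were low, it was 0.18 (SE 0.08, adjusted p = 0.0329), too small to be called. With a pseudocount of 5 the 3 called differences were -0.75, -0.87 and -0.66 and missed the size threshold.

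Averaged over both cultivars, LAR1 was not called at any sugar step. The values were -0.54 (SE 0.07) from under 1 to 1-4 g/100 ml, 0.07 (SE 0.09, adjusted p = 0.458) to 4-10 and -0.43 (SE 0.09) to 10-16, and -0.73 (SE 0.07) from there to 22 g/100 ml and over, where 12.5% of all genes were called. In Cabernet Sauvignon alone the step from 10-16 to 22 g/100 ml and over was -1.71 (SE 0.09, adjusted p = 5.92e-40; 9.38% of genes called lower; -0.64 with a pseudocount of 5). That step differed between the cultivars by 1.96 (Pinot noir minus Cabernet Sauvignon, SE 0.13, adjusted p = 1.28e-28; 2.55% of genes called higher; 0.70 with a pseudocount of 5). LAR1 of Pinot noir was already near 0 at 10-16 g/100 ml (median 0.105 RPKM) and had little room to fall. The value therefore holds the cultivar difference at 10-16 g/100 ml given above. The corresponding differences for ANR (0.25, SE 0.20, adjusted p = 0.311) and LAR2 (-0.60, SE 0.22, adjusted p = 0.0178) were not called.

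LAR2 was the more abundant of the LAR genes in green berries, with a median of 17.6 RPKM in Cabernet Sauvignon and 20.3 in Pinot noir under 1 g/100 ml, against 5.68 and 0.395 for LAR1. In Cabernet Sauvignon of 2012 it stood at 52.0, 46.2 and 28.4 RPKM on day -37, at 5.02, 5.87 and 5.45 on day -9 and at 4.62, 1.81 and 2.06 on day 0. In 2013 it was at 25.3, 27.0 and 27.1 RPKM on day -26, at 14.4, 17.6 and 17.6 on day -13 and at 4.56, 6.56 and 3.87 on day -6. No library of day -6 reached the level of day -13, and this was the largest fall of LAR2 in that season (log2 change -1.56, SE 0.39, adjusted p = 0.000480). The 2014 values were 22.0, 10.3 and 17.5 RPKM on day -7, 9.46, 22.8 and 18.1 on day 0 and 10.2, 12.5 and 5.59 on day 21, and these groups overlap. LAR2 of that season was at 1.36, 1.63 and 2.98 RPKM on day 28 (log2 change of the step -1.78, SE 0.39, adjusted p = 0.000214; 2.67% of genes called lower).

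In Pinot noir of 2012 LAR2 fell together with ANR. It was at 44.9, 44.9 and 49.3 RPKM on day -36, at 37.5, 30.5 and 33.6 on day -18 and at 5.00, 6.21 and 5.12 on day -9. The fall into day -9 was -2.44 (SE 0.39, adjusted p = 2.87e-08), and the 2 samplings do not overlap. In 2013 it was at 36.4, 59.6 and 24.1 RPKM on day -20, at 15.9, 14.9 and 10.6 on day -7 and at 8.32, 7.28 and 3.23 on day 0. In 2014 it was at 9.54, 9.91 and 8.30 RPKM on day -20, at 13.1, 14.2 and 13.0 on day 0 and at 8.97, 4.02 and 7.13 on day 7. The day 0 libraries of 2014 lie above those of day -20, and those of day 7 overlap day -20.

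As a mean of the 6 cultivar-seasons LAR2 did not reach the size threshold at either step. It changed by -0.82 from under 1 to 1-4 g/100 ml (SE 0.13, adjusted p = 4.18e-09) and by -0.99 from 1-4 to 4-10 (SE 0.15, adjusted p = 1.39e-09). Without the 2014 season the first was -1.45 and passed, and without 2013 the second was -1.11 and passed. No cultivar difference was called at either step. In Cabernet Sauvignon alone LAR2 fell by 1.02 at the first (SE 0.18, adjusted p = 4.72e-07) and in Pinot noir alone by 1.38 at the second (SE 0.19, adjusted p = 1.80e-10). The former did not pass without replicate 1 (-0.86), 2012 (-0.66) or 2013 (-0.61). The tests of the cultivar difference gave 0.41 (SE 0.25, adjusted p = 0.222) and -0.79 (SE 0.30, adjusted p = 0.0417).

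**Figure D3:**
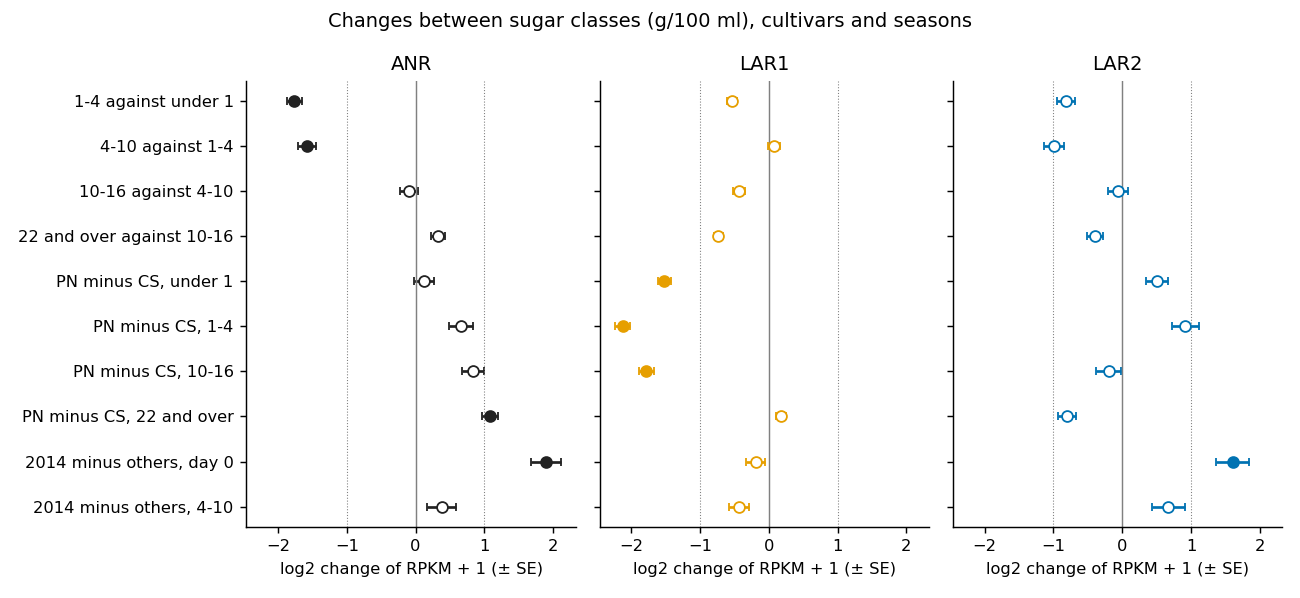
Log2 changes of RPKM + 1 with SE (bars) for the sugar-class steps, the cultivar differences (PN, Pinot noir, minus CS, Cabernet Sauvignon) and the season differences; filled points were called and dotted lines mark a change of 1. ANR is called at the first 2 steps and LAR1 at 3 of the 4 cultivar differences.

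LAR2 rose again late in Cabernet Sauvignon of 2012. It was at 1.70, 1.34 and 0.750 RPKM on day 63, at 16.7, 7.64 and 10.3 on day 74 and at 5.70, 0.959 and 8.43 on day 80. The groups of day 63 and day 74 do not overlap, and the rise was 2.43 (SE 0.39, adjusted p = 5.30e-08; 4.08% of genes called higher). The step into day 80 was -1.27 (SE 0.39, adjusted p = 0.0223; 0.341% of genes called lower) and did not pass without replicate 2 (-0.83). Mean sugar was 21.5, 27.4 and 24.6 g/100 ml on these 3 days.

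In 2013 LAR2 of Cabernet Sauvignon was at 1.33, 2.84 and 4.66 RPKM on day 49, at 6.91, 5.80 and 5.95 on day 56 and at 9.18, 11.4 and 11.4 on day 63. These 3 groups do not overlap, though neither step passed on its own (0.96, SE 0.39, adjusted p = 0.143, and 0.69, SE 0.39, adjusted p = 0.232). ANR in the same libraries lay between 0.746 and 1.65 RPKM and LAR1 between 0.0835 and 0.304. In 2014 LAR2 was at 2.94, 2.84 and 1.98 RPKM on day 42 and at 5.47, 3.73 and 4.69 on day 63. In Pinot noir the last sampling of 2013, at a mean sugar content of 28.8 g/100 ml, had 6.07, 4.09 and 6.82 RPKM, and those of 2012 and 2014 lay between 1.40 and 1.82.

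At 22 g/100 ml and over, LAR2 ran from 0.959 to 16.7 RPKM in Cabernet Sauvignon (median 4.86) and from 0.992 to 6.82 in Pinot noir (median 2.18). The ranges overlap, and Pinot noir minus Cabernet Sauvignon was -0.80 (SE 0.13, adjusted p = 1.75e-08), under the size threshold. The proportions of the 3 genes were these. Of the summed RPKM of the 3 genes, ANR made up a median of 54.2% under 1 g/100 ml and 15.0% at 22 g/100 ml and over in Cabernet Sauvignon, and 53.3% and 54.0% in Pinot noir. At 4-10 g/100 ml the medians were 9.04% and 24.8%, while LAR1 made up 63.0% of the LAR sum in Cabernet Sauvignon and 2.42% in Pinot noir. RPKM is scaled to the length of the gene model, but how reads shared by paralogs were assigned is not known. Levels of different genes can therefore be set against each other only roughly. They are levels of transcript and not of enzyme.

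To place the shut-down of each gene in time, the point was found at which its group mean first dropped to 50% of its highest green level (the highest group mean at a mean sugar content under 4 g/100 ml). For ANR in Cabernet Sauvignon this was day -22.8, -19.1 and -2.76 in 2012, 2013 and 2014, at a sugar content of 0.480, 0.445 and 1.59 g/100 ml. In Pinot noir it was day -13.2, -16.5 and -6.57, at 2.50, 1.01 and 1.31 g/100 ml. The mean was day -13.5 ± 7.62 and 1.22 ± 0.770 g/100 ml (SD, n = 6 cultivar-seasons). The 10% point of ANR lay between day -9.16 and day -7.24 in the 4 cultivar-seasons of 2012 and 2013 and at day 5.52 and day 6.94 in 2014. Without replicates 1 and 2 of Pinot noir 2013 at day -20, the 50% point of ANR in that season was day -8.30, at 2.64 g/100 ml, and its mean did not reach the 10% level at any later sampling.

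For LAR2 the 50% point was day -29.0, -11.0 and 13.5 in Cabernet Sauvignon and day -14.6, -11.8 and 5.46 in Pinot noir. The sugar content there was 0.454, 0.912 and 12.7 g/100 ml in Cabernet Sauvignon and 2.12, 1.73 and 6.80 in Pinot noir. Without the 2 high libraries of Pinot noir 2013 that season's value was day -5.36, at 4.44 g/100 ml. In 2014 LAR2 crossed the 50% level downwards 2 times in Cabernet Sauvignon and 3 times in Pinot noir. Leaving out 1 replicate moved the Cabernet Sauvignon value of 2014 between day 4.16 and day 23.3.

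For LAR1 in Cabernet Sauvignon the 50% point was day 9.90 in 2013 and day 10.2 in 2014, at 13.0 and 9.73 g/100 ml. In 2012 the first crossing was at day -23.4, from the high level of day -37 given above, and the last crossing was at day 0.694. The 10% point of LAR1 was day 20.4, 21.4 and 22.9 in the 3 seasons, at 15.8, 17.6 and 15.9 g/100 ml. The Pinot noir references of LAR1 were only 1.27, 3.90 and 1.96 RPKM (0.428 in 2013 without the 2 high libraries and 0.909 in 2014 without the marker library), and its 50% points there describe a level near 0.

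No pair of the 3 genes kept the same order in all 6 cultivar-seasons. The 50% point of LAR2 came 5.55 days after that of ANR on average and was later in 4 of 6 cultivar-seasons (exact sign-flip permutation test, two-sided, p = 0.188, adjusted p = 0.562 over 3 pairs). The differences LAR1 minus ANR (5.09 days, later in 2 of 6, adjusted p = 0.75) and LAR1 minus LAR2 (-0.46 days, later in 2 of 6, adjusted p = 0.938) did not pass the same exact test either. With 6 cultivar-seasons the smallest p this test allows is 0.0312. The differences with LAR1 hold its Pinot noir points, which describe a level near 0, and the early first crossing of Cabernet Sauvignon 2012. The test therefore does not decide the order of LAR1 in Cabernet Sauvignon. There the 10% points of 2012, 2013 and 2014 were day 20.4, 21.4 and 22.9 for LAR1. Those of ANR were day -8.38, -7.24 and 5.52. This order of the 10% points was not tested.

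**Figure D4:**
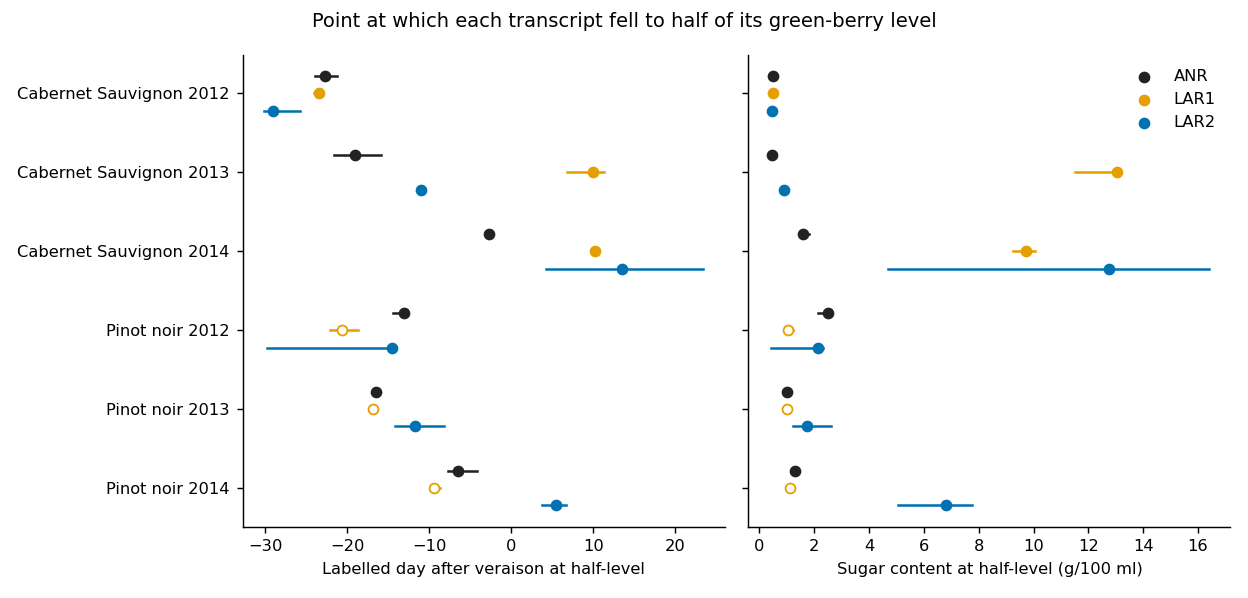
Labelled day (left) and sugar content in g/100 ml (right) at which the mean level of ANR, LAR1 and LAR2 first dropped to 50% of the green reference, per cultivar and season. Lines span the values with 1 replicate left out, and open circles are LAR1 in Pinot noir, whose reference was under 5 RPKM; the 2014 points of ANR and LAR2 lie to the right of those of the other seasons by day.

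The 50% points of 2014 were set against those of the other seasons. The 50% point of ANR was 13.2 days later in 2014 than in the mean of the other cultivar-seasons, and both values of 2014 were later than all 4 others (exact permutation test, two-sided, p = 0.0667, the smallest value that 2 against 4 allows). Without the 2 high libraries of Pinot noir 2013 it was 11.2 days (exact permutation p = 0.133). By sugar the difference was 0.34 g/100 ml (exact permutation p = 0.733). LAR2 was later by 26.1 days and by 8.47 g/100 ml, again with both values of 2014 above all 4 others on each scale (exact permutation p = 0.0667 each). The 50% point was sought only after the highest green level. For LAR2 that level was on day 0 in Cabernet Sauvignon (16.8 RPKM) and day -6 in Pinot noir (16.4) of 2014. In the other cultivar-seasons it was at the first sampling, day -37 to day -20, at 26.5 to 46.4 RPKM. The LAR2 point of Cabernet Sauvignon 2014 thus could not lie before day 0. That of ANR there could not lie before day -7. The values of LAR1 were 13.2 days (exact permutation p = 0.333) and 1.54 g/100 ml (exact permutation p = 0.8), with Cabernet Sauvignon at day 9.90 in 2013 and day 10.2 in 2014. A test of 2 against 4 cannot reach 0.05, so no season difference in the 50% point was shown.

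At labelled day 0 the season difference was called for 2 of the 3 genes. 2014 minus the mean of 2012 and 2013 was 1.90 for ANR (SE 0.21, adjusted p = 7.51e-14) and 1.61 for LAR2 (SE 0.24, adjusted p = 4.09e-09), where 2.34% of all genes were called higher. It was -0.19 for LAR1 (SE 0.14, adjusted p = 0.282). Day 0 of 2014 had a mean sugar content of 2.26 g/100 ml in Cabernet Sauvignon and 1.11 in Pinot noir, against 6.83 to 9.23 in the earlier seasons. Within the sugar class 4-10 the season differences were 0.38 (SE 0.21, adjusted p = 0.234), -0.43 (SE 0.14, adjusted p = 0.0203) and 0.67 (SE 0.24, adjusted p = 0.0363) for ANR, LAR1 and LAR2, and none was called (1.92% of genes were called in either direction). The part of the library set in these differences cannot be told apart from that of the season.

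Before sugar rose, the first and last samplings under 1 g/100 ml were compared within each cultivar-season that had both. No member was called: the changes were -0.80 for ANR (SE 0.16), 0.51 for LAR1 (SE 0.10) and -0.46 for LAR2 (SE 0.17), at adjusted p of 4.04e-06, 6.54e-06 and 0.0171, where 2.82% of genes were called. The value of LAR1 was -0.050 without the libraries that carry the other cultivar's markers. Without the 2014 season the changes of ANR and LAR2 were -1.46 and -1.14 and passed.

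The other genes of the pathway, taken from lists of regulators, upstream enzymes and skin genes, were described at the same steps. Among 9 regulators of the tannin branch, 0 were called in either direction between under 1 and 1-4 g/100 ml (median log2 change -0.22, against -0.02 over all genes), where 4.17% of all genes were called. Of the 8 genes of the shared upstream enzymes 0 were called at that step in the mean of the cultivar-seasons (median -0.26). In Pinot noir alone 1 of them was called lower, and in Cabernet Sauvignon alone 0 were called. DFR and LDOX, which make the substrates of LAR and ANR, had log2 changes of 0.0071 and 0.015 in the mean (SE 0.053 and 0.083). UFGT (VIT_16s0039g02230) rose by 1.95 (SE 0.13, adjusted p = 1.41e-31; 1.54% of genes called higher), with a value of 0.91 at a pseudocount of 5. Its median level was 0.0320 RPKM under 1 and 7.85 at 1-4 g/100 ml in Cabernet Sauvignon, and 0 and 0.135 in Pinot noir.

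At the second step, from 1-4 to 4-10 g/100 ml, 2 of the 9 regulators fell and 0 rose (median -0.43), where 6.71% of all genes were called. They were VIT_14s0006g01620 (log2 change -1.94, SE 0.07, adjusted p = 2.76e-60) and VIT_11s0016g01300 (-1.09, SE 0.05, adjusted p = 6.69e-45; -0.36 with a pseudocount of 5, -0.83 after quantile normalization and -0.88 without 2012). MYBPA1, an activator of tannin synthesis in grape, changed by -0.45 (SE 0.15) and MYBC2-L1, a repressor, by -0.90 (SE 0.07), both under the size threshold. Of the 8 upstream genes 3 rose and 0 fell (median 0.81; 1.69% of genes were called higher): CHS3, a chalcone synthase (2.19, SE 0.17), CHI, chalcone isomerase (1.10, SE 0.11), and LDOX, leucoanthocyanidin dioxygenase (1.01, SE 0.10). CHI missed the threshold without 2013 (0.95) and LDOX without 2012 (0.96). UFGT rose by 2.71 (SE 0.15) at this step.

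Late in ripening, from 10-16 to 22 g/100 ml and over, MYBPA1 rose as a mean of the 6 cultivar-seasons (limma, 1.21, SE 0.12, adjusted p = 4.78e-19). The value was 0.91 without the second library set, 0.98 without replicate 3 and 0.92 with a pseudocount of 5. WDR1, a WD-repeat partner of the MYB regulators, fell by 1.08 (SE 0.04, and -0.90 with a pseudocount of 5). VIT_08s0007g07230 fell by 1.10 (SE 0.04, with -0.95 without 2013 and -0.78 with a pseudocount of 5). The other 6 regulators were not called, where 12.5% of all genes were called. At 22 g/100 ml and over 0 of the 9 regulators were called between the cultivars, where 9.64% of all genes were called, and 3 of the 8 upstream genes were higher in Pinot noir, where 5.62% of all genes were: CHS3 (1.55, SE 0.15), CHI (1.45, SE 0.10) and CHS1 (1.27, SE 0.11). UFGT was higher too (1.24, SE 0.13; 0.96 without the second library set). At 10-16 g/100 ml MYBPA1 (-1.10, SE 0.19), CHS2 (-1.07, SE 0.17) and VIT_04s0023g03370 (-1.41, SE 0.15) were lower in Pinot noir, where 7.77% of genes were called in either direction. The first was -0.80 without replicate 3 and -0.86 without 2012, and the second -0.81 without 2014. At labelled day 0, VIT_14s0006g01620 was higher in 2014 (1.15, SE 0.11; 0.98 after quantile normalization and 0.56 with a pseudocount of 5).

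Of 5 genes of coloured berry skin, UFGT and GST4 (a glutathione transferase of anthocyanin transport) among them, 4 rose at the first step and 5 at the second, where 1.54% and 1.69% of all genes were called higher. Their part in the tannin results was not tested. A list of seed storage markers could not be matched to the gene IDs of the expression table. Carry-over from the seeds, which also make tannins, was therefore not tested.

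Over the 73 group means of log2(RPKM + 1), the genes most like each member were found among 17202 genes with a group mean of at least 5 RPKM somewhere. VIT_11s0016g01480 (Pearson r 0.936) and VIT_08s0007g00330 (0.934) were closest to ANR, VIT_14s0006g02550 (0.910) and VIT_00s0187g00080 (0.905) to LAR1, and VIT_13s0175g00100 and VIT_14s0060g00380 (both 0.875) to LAR2. ANR and LAR2 correlated at 0.797, ANR and LAR1 at 0.456, and LAR1 and LAR2 at 0.431. The points share cultivars, seasons and the ripening course itself, so these values describe the courses.

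**Figure D5:**
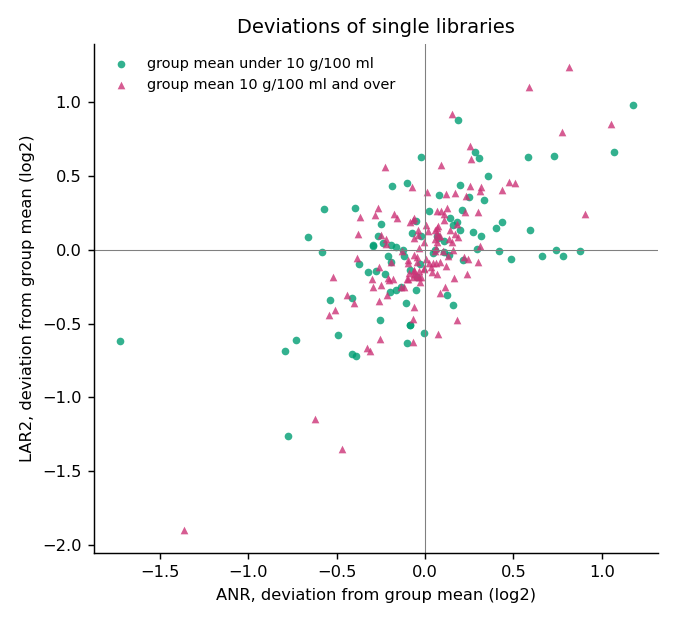
Deviation of each library from the mean of its own group of 3, on the log2(RPKM + 1) scale, for ANR (x axis) and LAR2 (y axis), with groups under and over a mean sugar content of 10 g/100 ml marked apart. Libraries high in ANR for their group tend to be high in LAR2.

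ANR and LAR2 also varied together among the 3 libraries of a sampling. The deviations of all libraries from their own group means correlated at 0.628 (Pearson r) between ANR and LAR2, at 0.285 between ANR and LAR1 and at 0.055 between LAR1 and LAR2. Among 18024 genes, ANR was the gene whose deviations were closest to those of LAR2, and LAR2 ranked 20 for ANR. For ANR and LAR2 the value was 0.577 in groups under 10 g/100 ml and 0.706 in the others. It was 0.517 in groups of the first library set and 0.728 in those of the second. For ANR and LAR1 it was 0.502 in groups of the first set and -0.043 in those of the second. The first set holds Pinot noir 2013 at day -20, where replicates 1 and 2 were far above replicate 3. The deviations of replicates 1, 2 and 3 there were 0.66, 1.07 and -1.73 for ANR and 0.49, 0.98 and -1.46 for LAR1. No correlation was computed without that group, so how far the value of 0.502 rests on it is not known. Without the groups that hold the other cultivar's markers, ANR and LAR1 correlated at 0.378, against 0.624 for ANR and LAR2. Libraries of a group share cultivar, season and day, and differ in vine block.

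A rule set after the values had been seen picked ripening libraries at 3 or more times their cultivar's median of ripening libraries for both genes. Such libraries lay in 3 groups, and without these groups the correlation of ANR and LAR2 was 0.528. In Pinot noir 2014 at day 14, ANR was at 8.53, 7.39 and 1.17 RPKM and LAR2 at 22.3, 27.8 and 2.61 RPKM in replicates 1, 2 and 3, so replicates 1 and 2 were high for both genes and replicate 3 was low for both. At day 28 of that season ANR was at 9.50, 2.89 and 4.22 RPKM and LAR2 at 19.4, 2.92 and 7.19. In Cabernet Sauvignon 2013 at day 36 replicate 1 had ANR at 4.11 and LAR2 at 12.2 RPKM, against at most 0.734 and 4.54 in the other libraries of the group. In all 3 groups the library that met the rule was replicate 1. LAR1 was at most 0.416 RPKM in all 9 of these libraries.

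LAR1 and sugar varied together among Cabernet Sauvignon libraries at the onset of ripening in 2012 and 2013, in samplings picked after their values had been seen. On day -9 of 2012 the libraries with 2.48, 0.61 and 1.57 g/100 ml of sugar had LAR1 at 7.47, 1.71 and 6.18 RPKM. On day -6 of 2013 those with 2.36, 1.67 and 1.96 g/100 ml had 7.03, 3.40 and 5.14 RPKM. In both groups the order of LAR1 followed the order of sugar. On day 0 of 2014, with 2.78, 2.28 and 1.71 g/100 ml, LAR1 was at 3.96, 3.94 and 4.07 RPKM and did not follow it.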

How the data were processed

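Libraries were non-directional TruSeq libraries of pericarp RNA, per the labels' protocols, so sense and antisense reads are summed. The authors deposited RPKM per gene and library. Per the submitters' processing notes, TopHat2 2.0.6 and Cufflinks 2.0.2 were used; the build, the annotation and how reads shared by paralogs were assigned are not given in the sources used here. Depth is unknown: values of 3142 low genes showed no steps of whole reads. The test scale was log2(RPKM + 1). Genes with at least 1 RPKM in at least 3 libraries were tested with limma 3.58.1 in R 4.3.3 (73 group means, 146 residual degrees of freedom, trend and robust options), with Benjamini-Hochberg adjustment, after testing the script on simulated data. Group-class means were averaged per cultivar-season first. P-values measure the spread between libraries of a group, which come from blocks of one vineyard. The 50% points were interpolated linearly.

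The members, lists and tests were chosen with earlier results of these data known. Named genes were the members, up to 6 list genes past the threshold per comparison, and the 2 genes most correlated with each member. Of 25 list symbols, 15 are in the RefSeq table used for names and 14 of those on the chromosome the ID carries (ANR has an unplaced ID); 0 IDs matched directly, and list genes without a symbol there are given by ID. Alternatives were other pseudocounts, filters and scalings, a replicate block, and left-out replicates, seasons and libraries. The late cultivar comparisons, single-cultivar steps, the rule for high ripening libraries and the left-out library set and Pinot noir libraries were added after seeing the data. Promoter motifs were not analysed here.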

Additional observations from a re-analysis of the deposited data

Results flagged for a closer look

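The change of LAR1 from 10-16 to 22 g/100 ml and over differed between the cultivars by 1.96 on the log2 scale (Pinot noir minus Cabernet Sauvignon, SE 0.13, limma, adjusted p = 1.28e-28), by the test of the difference itself. LAR1 had a median of 1.99 RPKM at 10-16 g/100 ml and of 0.134 at 22 g/100 ml and over in Cabernet Sauvignon, and of 0.105 and 0.298 in Pinot noir. The change was negative in all 3 seasons of Cabernet Sauvignon. Without the second library set the difference was 2.36, and with a pseudocount of 5 it was 0.70. Pinot noir was already near 0 at 10-16 g/100 ml and had little room to fall. The value of 1.96 is the late cultivar difference less that at 10-16 g/100 ml, and is no separate result. This comparison was added after the late values had been seen.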

How the results depend on the processing

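Of 769 alternative values of the main results, 702 kept their direction and their side of the threshold. The fall of ANR to 1-4 g/100 ml, the LAR1 cultivar differences other than with a pseudocount of 5 or (under 1 g/100 ml) without 2012, and the day 0 differences of ANR and LAR2 were among them. The cause of the changes below was not tested.

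Pseudocounts mattered most for low levels. With 0.1, ANR in Pinot noir minus Cabernet Sauvignon was 1.42 at 10-16 g/100 ml, LAR2 at 1-4 was 1.00, and LAR2 from 1-4 to 4-10 was -1.13. LAR1 with 0.1 was 0.33 for the 2014 difference at day 0, -1.50 and -1.33 for the cultivar difference of the first and second step, 1.26 for the green phase, -0.24 at the second step and -1.27 at the late step. With 5, ANR was 0.46 for the late cultivar difference and -0.86 at the second step, and LAR1 was -0.75, -0.87 and -0.66 for the cultivar differences under 1, at 1-4 and at 10-16, and 0.70 for that of the late step. Quantile normalization gave LAR2 1.01 for the cultivar difference at 1-4 and 0.016 from 4-10 to 10-16. LAR1 had no value under a filter of a mean RPKM of at least 5.

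Without 2012, LAR1 was -0.86 for the cultivar difference under 1, -1.29 for that of the first step, 0.19 for the first step of Cabernet Sauvignon, -0.064 at the second step and 1.08 in the green phase, and LAR2 was 0.16 in the green phase. Without 2013, ANR was -0.47 for the cultivar difference under 1 (-0.45 without only the 2 Pinot noir libraries, which gave 1.11 for that of the first step), and LAR2 was 0.13 from 4-10 to 10-16 and -1.11 from 1-4 to 4-10. Without 2014 and without the second library set respectively, the green phase was -1.46 and -1.45 for ANR, -0.37 and -0.37 for LAR1, and -1.14 and -1.11 for LAR2. LAR2 was -1.45 and -1.46 at the first step, 0.052 and 0.098 at the late step, and 0.34 and 0.43 at that of Cabernet Sauvignon. Its cultivar differences were 1.44 and 1.44 at 1-4 and -1.11 and -1.11 for the second step. Without the libraries that carry the other cultivar's markers LAR1 was -0.050 in the green phase.

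Leaving out 1 replicate gave ranges of -0.10 to 0.49 for the ANR cultivar difference under 1, -0.036 to 0.19 for LAR1 at the second step, and for LAR2 0.77 to 1.02 and -0.37 to 0.020 for the cultivar differences at 1-4 and 10-16, -0.26 to 0.15 for the late step of Cabernet Sauvignon, -0.29 to 0.12 from 4-10 to 10-16 and -1.23 to -0.79 from 1-4 to 4-10. For the mean 50% point of LAR2 it gave day -11.2 to -7.00 and 2.79 to 4.52 g/100 ml, and for LAR1 minus LAR2 -1.65 to 3.09 days. With the last crossing in place of the first, the mean was day -4.36 for LAR1 and day -2.51 and 6.59 g/100 ml for LAR2, and the 2014 difference of LAR1 by sugar was -0.15. With the mean of samplings under 1 g/100 ml as reference it was day -1.23 and 6.10 g/100 ml for LAR2, and -0.16 g/100 ml for the 2014 difference of ANR. By sugar, LAR1 minus LAR2 was 0.27 g/100 ml. Without the 2 Pinot noir 2013 libraries the mean was 1.49 g/100 ml for ANR and day -6.85 for LAR2, and the 2014 difference of ANR was -0.068 g/100 ml.

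A replicate block changed no call: ANR at the first step was -1.76 with it. Libraries with the same replicate number did not deviate together on average (mean correlations of -0.02 to 0.02 per cultivar-season), so no pairing by number was seen. These means do not show whether equal numbers stand for the same vine block. Counts over all genes were 894 and 1438 at the first and second step, 1697 and 2863 with a pseudocount of 0.1. With a pseudocount of 5 the counts over all comparisons were 0.353 to 0.496 times the main ones, with a mean RPKM of at least 5 they were 0.442 to 0.937 times, and without a season at most 1.81 times. Read depth, which limits low values, is unknown.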
